A study of Mus musculus with 6 samples.

Results

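The TNF superfamily ligands, their receptors and the TRAF adaptors were followed in mouse T cells cultured under Th17 conditions. The 40 genes described here were taken by name from the 33300 features of the expression table, as 16 ligand genes, 20 receptor genes and 4 adaptor genes, and no measured value entered the rule. Of the 40 genes, 29 averaged at least 1 FPKM across all 6 libraries and were tested, while 11 lay under that level and were not. FPKM scales the reads of a gene to its transcript length and to the assigned reads of the library, so levels of different genes can be set side by side on it. A change is given as SLE1.2.3 minus control on the scale of log2(FPKM + 1), with its standard error, and a gene passed where its limma p, adjusted over all 11378 tested genes, was below 0.05.

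The mice were female and matched for age, with the ages not given in the sources used here, and fell into 2 groups. Control mice carry the label WT with no strain named, and SLE1.2.3 mice are known as a lupus-prone congenic line with the susceptibility intervals Sle1, Sle2 and Sle3 on chromosomes 1, 4 and 7. Naive CD4 T cells from 3 mice per group were activated on plates coated with antibodies to CD3 and CD28. Over 5 days every culture held antibodies against IL-4 and interferon-γ at 10 µg/mL each, TGF-β1 at 1 ng/mL, IL-23 and IL-1β at 10 ng/mL each and IL-6 at 50 ng/mL, and polyadenylated RNA was then sequenced. Both groups received the same cytokines, and no undifferentiated culture is analysed here.

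TNF superfamily ligands are mostly trimeric proteins on the cell surface or shed from it, and they act by clustering their receptors on the same or a neighbouring cell. Receptors with a death domain, such as TNFR1 and Fas, can lead to caspase activation, whereas others, such as CD30, OX40 and TNFR2, bind TRAF adaptors and feed the NF-κB and MAP kinase pathways. In T cells the family is known for costimulation after antigen encounter, for the survival of activated cells and for activation-induced death.

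Assigned reads, in units of 1000000, ran from 29.7 to 83.5 per library, the shallowest being control mouse 3. The first principal component, with 78.4% of the variance, placed the controls between -29.5 and -28.6 and SLE1.2.3 mice 1, 2 and 3 at 4.25, 33.9 and 49.0. T cell identity was present in all 6 libraries, with Cd3e between 47.5 and 60.8 FPKM. Cd4 was at 246, 264 and 253 FPKM in the controls against 257, 144 and 71.6 FPKM in SLE1.2.3 mice 1, 2 and 3, and did not pass (adjusted p = 0.20). Of 10 CD4 T cell and Th17 markers, all tested, 5 rose and 0 fell. Their sums were 1722 to 2399 FPKM in the controls and 3485, 3686 and 3394 FPKM in SLE1.2.3 mice 1, 2 and 3. The summed level of 9 γδ T cell markers ran from 3.08 to 4.01 FPKM in the controls and was 58.9, 272 and 607 FPKM in SLE1.2.3 mice 1, 2 and 3, and 7 of the 9 rose, with Trdv4 listed at 0 in control mice 1 and 3. Of 9 CD8 T and NK cell markers, 6 were tested and 4 rose, and their sum went from 15.4 to 16.9 FPKM in the controls to 63.6, 248 and 348 FPKM. Of 9 B and plasma cell markers, 4 were tested and 3 rose, with sums of 56.3 to 63.3 FPKM in the controls and 137, 127 and 184 FPKM in SLE1.2.3 mice 1, 2 and 3, although Ms4a1 was at most 0.043 FPKM in every library. The 9 myeloid and dendritic markers summed to 8.68 to 10.1 FPKM and to 13.6, 9.14 and 8.69 FPKM, with 1 of 4 tested genes higher and 1 lower. The 6 regulatory T cell markers summed to 623 to 770.4 FPKM and to 608, 648 and 588 FPKM, sums made up mostly of Il2ra and Ctla4. Of these 6 markers, 4 were tested, and Lrrc32 and Ikzf4 fell (25.5 to 4.39 and 9.58 to 5.30 FPKM), while the defining gene Foxp3 was at most 0.309 FPKM in the controls and between 0.864 and 1.73 FPKM in SLE1.2.3 cells. Ikzf2 was also higher in every SLE1.2.3 library, with means of 0.169 and 1.45 FPKM. Foxp3 and Ikzf2 averaged under 1 FPKM and were not tested. The part of these markers in the results below was not tested. In bulk RNA, fewer cells of a type and less RNA per cell cannot be told apart.

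Of the 29 tested genes, 5 rose and 3 fell in SLE1.2.3 cells, and 21 did not pass. The genes that rose were the receptor genes Tnfrsf8, Tnfrsf1b and Tnfrsf1a and the adaptor genes Traf1 and Traf2. The genes that fell were the ligand genes Tnfsf8 and Lta and the adaptor gene Traf6. In all, 27.6% of the tested TNF family genes passed, against a background of 15.2% of all tested genes. That background was 9.65% for genes called higher and 5.58% for genes called lower. The 3 SLE1.2.3 values lay wholly on one side of the 3 control values in 18 of the 29 genes (62.1%), 8 above and 10 below, against 41.5% of all tested genes, 23.9% above and 17.7% below. The median log2 change over the 29 genes was -0.21, beside 0.01 over all tested genes. The median was thus below 0 although more of the genes passed upwards than downwards.

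**Figure D1:**
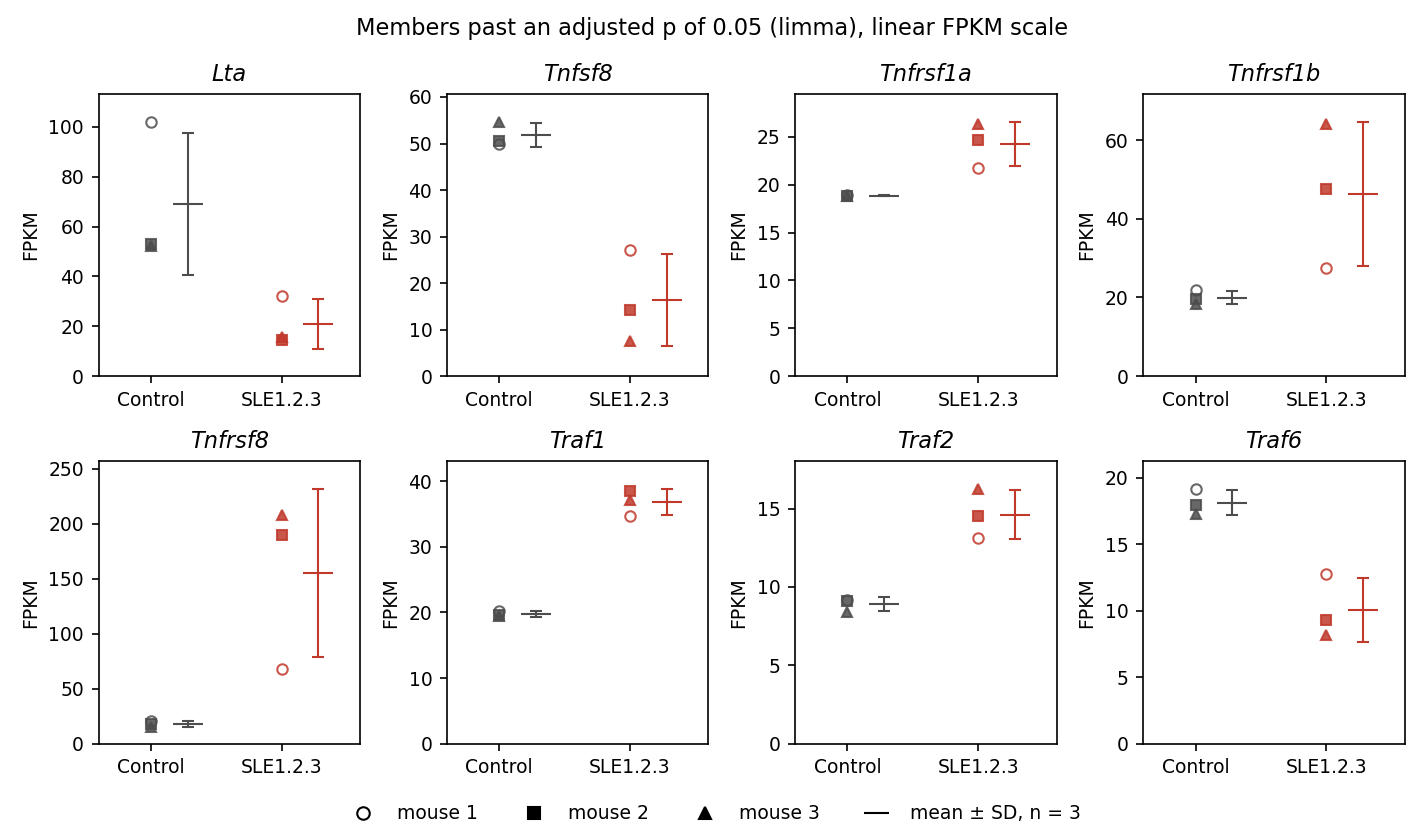
FPKM (y axis) of the 8 TNF family genes that passed, 1 panel per gene, in control and SLE1.2.3 cells; each point is 1 mouse and the bar with whiskers gives the mean and SD of 3 mice. No control point overlaps the SLE1.2.3 range in any of the 8 panels, and SLE1.2.3 mouse 1 is the SLE1.2.3 point nearest the control mean in all 8.

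The CD30 pair moved in opposite directions. Tnfrsf8 encodes CD30, a receptor of activated lymphocytes that binds TRAF1 and TRAF2, and Tnfsf8 encodes its ligand, CD30L. Both genes lie on chromosome 4, Tnfrsf8 at 145267137 to 145315164 and Tnfsf8 at 63831308 to 63861347 (mm10). Tnfrsf8 was at 20.6, 18.2 and 15.2 FPKM in control mice 1, 2 and 3 and at 67.6, 190.0 and 208 FPKM in SLE1.2.3 mice 1, 2 and 3. Every SLE1.2.3 value thus lay far above the controls, with mouse 1 well below the other SLE1.2.3 mice. The means were 18.0 ± 2.67 and 155 ± 76.3 FPKM (SD, n = 3 each), 8.61-fold apart, and the gene rose by 2.89 ± 0.42 on the log2 scale (adjusted p = 0.0125). Its place in the order of mean FPKM among the 40 genes was 17 in control cells and 2 in SLE1.2.3 cells, behind Ltb alone. Tnfsf8 was at 49.9, 50.6 and 54.7 FPKM in the controls and at 27.0, 14.2 and 7.65 FPKM in SLE1.2.3 mice 1, 2 and 3. The groups did not overlap, the controls were close to each other and the SLE1.2.3 mice were widely spread. Tnfsf8 fell by 1.77 ± 0.39 on the log2 scale (adjusted p = 0.034), from 51.7 ± 2.57 to 16.3 ± 9.86 FPKM. Within each library the ratio of Tnfrsf8 to Tnfsf8, which no scaling of the library can move, was 0.412, 0.360 and 0.278 in the controls and 2.50, 13.4 and 27.1 in SLE1.2.3 mice 1, 2 and 3. Control cells thus held more ligand than receptor RNA and SLE1.2.3 cells more receptor than ligand RNA, in all 3 mice of each group; the ratio was chosen with the values known and carries no test. The Tnfrsf8 call ended without control mouse 1, 2 or 3 (adjusted p = 0.057, 0.062 and 0.064) or SLE1.2.3 mouse 2 (0.062). The Tnfsf8 call ended without the same libraries (adjusted p = 0.11, 0.12, 0.11 and 0.12), and both passed with SLE1.2.3 mouse 1 as the single SLE1.2.3 library, where the spread is that of the controls (adjusted p = 0.0055 and 0.0088).

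The 250 bases before the start of both genes of the CD30 pair are shown because the receptor gene rose where the ligand gene fell, together with those of Tnfrsf1b, the gene next to Tnfrsf8, and of Traf1, the member with the smallest adjusted p. Sequences are from RefSeq on GRCm38.p6, read 5′ to 3′ on the strand of the gene. Capitals mark a match, on either strand, to the 10-letter NF-κB consensus, to the AP-1 motif TGANTCA, or to the interferon regulatory factor motif, which is GAAA, any pair of bases, then GAAA.
Tnfrsf8: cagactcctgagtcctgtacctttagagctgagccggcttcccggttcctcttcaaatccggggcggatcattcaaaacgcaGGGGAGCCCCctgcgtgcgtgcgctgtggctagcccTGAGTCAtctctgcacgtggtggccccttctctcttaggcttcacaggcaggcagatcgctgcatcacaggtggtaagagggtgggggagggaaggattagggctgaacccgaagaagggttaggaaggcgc
Tnfsf8: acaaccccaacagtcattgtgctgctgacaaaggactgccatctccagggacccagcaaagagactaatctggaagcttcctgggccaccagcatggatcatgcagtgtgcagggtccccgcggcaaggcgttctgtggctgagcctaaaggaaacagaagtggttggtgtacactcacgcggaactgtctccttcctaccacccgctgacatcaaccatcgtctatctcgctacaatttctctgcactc
Tnfrsf1b: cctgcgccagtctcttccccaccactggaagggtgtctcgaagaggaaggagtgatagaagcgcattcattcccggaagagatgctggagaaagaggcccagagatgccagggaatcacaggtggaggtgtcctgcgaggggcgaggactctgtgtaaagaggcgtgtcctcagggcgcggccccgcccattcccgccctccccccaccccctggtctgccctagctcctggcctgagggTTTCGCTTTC
Traf1: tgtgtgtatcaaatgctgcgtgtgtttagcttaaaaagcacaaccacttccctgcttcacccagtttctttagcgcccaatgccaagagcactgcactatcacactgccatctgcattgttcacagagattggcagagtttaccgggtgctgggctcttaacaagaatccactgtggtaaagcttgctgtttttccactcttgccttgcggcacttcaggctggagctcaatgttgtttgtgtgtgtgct
The Tnfrsf8 window, chr4:145315165-145315414, minus strand, held an NF-κB match 168 to 159 bases before the start and an AP-1 match 132 to 126 bases before it. The Tnfrsf1b window, chr4:145246871-145247120, minus strand, held an interferon regulatory factor match over the last 10 bases before the start. No match was found in the Tnfsf8 window, chr4:63861285-63861534, or the Traf1 window, chr2:34961773-34962022, both on the minus strand, which says only that these letters are not in those windows. RefSeq windows were matched for 31 of the 40 genes, 34 windows in all. The NF-κB consensus was in 4 of the 34 (11.8%) and in 3.90% of 32851 windows of all genes, the AP-1 motif in 6 (17.6%) and 6.75%, and the interferon regulatory factor motif in 3 (8.82%) and 2.98%. A match is a string of letters and not a shown binding site.

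Among the ligands, 2 of 10 tested genes fell, 0 rose and 8 did not pass, with a median log2 change of -0.15. The share that passed was 20%, near the 15.2% of all tested genes. In limma 5 of the 10 had an unadjusted p below 0.05, beside 35.0% of all tested genes. Voom on the recovered reads called the same 2 genes. Lta encodes lymphotoxin-α, a soluble ligand of both TNF receptors that also joins lymphotoxin-β in a membrane complex. It lies at 35203165 to 35205351 on chromosome 17, 1.2 kb from Tnf, which in turn lies 3.1 kb from Ltb. Lta was at 102, 53.2 and 52.0 FPKM in the controls and at 32.3, 14.4 and 15.8 FPKM in SLE1.2.3 mice 1, 2 and 3. Control mouse 1 stood well above the other controls, and the groups did not overlap. Lta fell by 1.70 ± 0.38 on the log2 scale (adjusted p = 0.034), from 69.1 ± 28.5 to 20.8 ± 9.94 FPKM, a 3.32-fold lower mean. Without control mouse 1, the log2 change was -1.39 and the call ended (adjusted p = 0.097), and it also ended without control mouse 2 (0.096), control mouse 3 (0.087), SLE1.2.3 mouse 2 (0.13) and SLE1.2.3 mouse 3 (0.069). Tnf, the family's founding inflammatory cytokine, was at 21.4, 15.8 and 16.7 FPKM in the controls and at 20.2, 36.1 and 49.7 FPKM in SLE1.2.3 mice 1, 2 and 3. SLE1.2.3 mouse 1 lay within the control range and the other SLE1.2.3 mice above it, so the groups overlapped and Tnf did not pass (log2 change 0.86 ± 0.31, adjusted p = 0.11). It passed after all libraries were scaled to the same FPKM sum (adjusted p = 0.047). The ratio of Tnf to Lta within a library was 0.210, 0.298 and 0.322 in the controls and 0.625, 2.51 and 3.14 in SLE1.2.3 mice 1, 2 and 3, again without overlap and again with no test. Ltb, the membrane partner of lymphotoxin-α, was the most abundant family RNA in both groups, at 321, 315 and 318 FPKM in the controls and 335, 384 and 340.0 FPKM in SLE1.2.3 cells. Its SLE1.2.3 values were all above the controls but by little, with means of 318 ± 2.89 and 353 ± 26.8 FPKM, and it did not pass (log2 change 0.15 ± 0.08, adjusted p = 0.25). The 3 neighbours on chromosome 17 therefore had different patterns in the same cells, with Lta lower, Tnf overlapping between groups and Ltb differing 1.11-fold.

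The other ligand genes of T cells did not pass. Tnfsf10, which encodes the death ligand TRAIL, was at 0.385, 0.508 and 0.645 FPKM in the controls and at 1.33, 3.31 and 7.70 FPKM in SLE1.2.3 mice 1, 2 and 3. The ranges were apart and the means differed 8.03-fold, but the change of 1.56 ± 0.45 missed the threshold (adjusted p = 0.062), and the gene reached the mean of 1 FPKM only through SLE1.2.3 libraries, which largely sets its direction. It passed with a pseudocount of 0.1 (adjusted p = 0.039) and with a common FPKM sum (0.0093). Tnfsf11, which encodes RANKL, the cytokine of osteoclast formation that Th17 cells are known to make, was at 30.3, 20.9 and 20.5 FPKM in the controls and at 70.3, 22.4 and 9.82 FPKM in SLE1.2.3 mice 1, 2 and 3. SLE1.2.3 mouse 1 was thus the highest of the 6 libraries and SLE1.2.3 mouse 3 the lowest, and the change over all mice was 0.10 ± 0.64 (adjusted p = 0.93). Without SLE1.2.3 mouse 1 the log2 change of Tnfsf11 was -0.62 and did not pass, and the gene passed upwards with mouse 1 as the single SLE1.2.3 library. Cd40lg, which encodes the CD40 ligand that T cells use to activate B cells, was at 38.3, 44.5 and 43.6 FPKM in the controls and at 45.7, 28.8 and 21.0 FPKM in SLE1.2.3 cells (adjusted p = 0.26). Its SLE1.2.3 values lay on both sides of the control range, in the same order of mice as Cd4. Other family genes, such as Tnfsf8 and Traf6, shared that order. Tnfsf4, the gene of OX40 ligand, had means of 2.34 ± 0.194 and 1.81 ± 0.255 FPKM with ranges apart (adjusted p = 0.12). Tnfsf14, which encodes LIGHT, had 10.9 ± 1.94 and 8.95 ± 1.36 FPKM (adjusted p = 0.27), and Tnfsf9, which encodes the ligand of CD137, lay between 13.5 and 15.8 FPKM in the controls and between 12.6 and 16.7 FPKM in SLE1.2.3 cells (adjusted p = 0.83). A transcript on the opposite strand, Gm11110, overlaps 14.9% of the exonic bases of Tnfsf9, and the strand setting of the counting is not given in the sources used here.

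**Figure D2:**
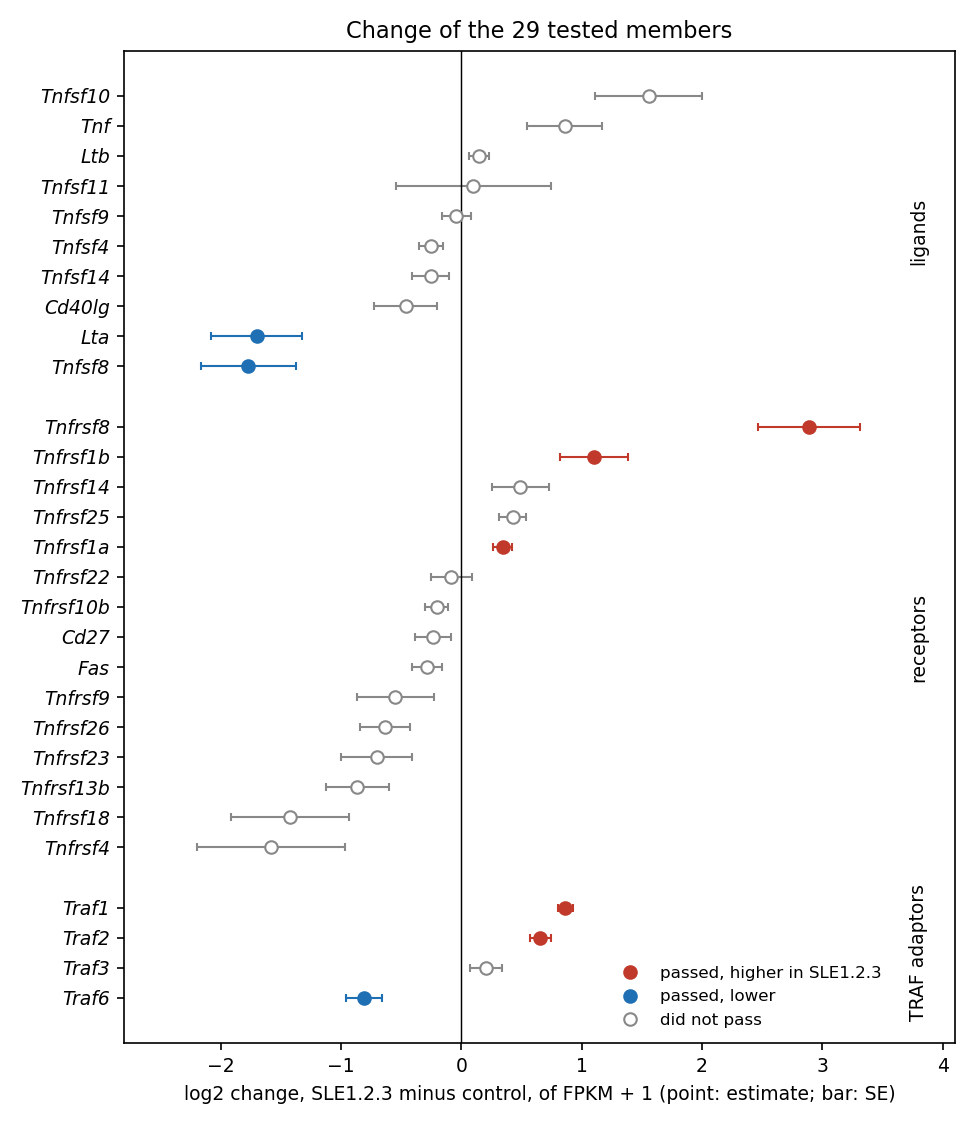
Change of the 29 tested genes on the log2(FPKM + 1) scale, SLE1.2.3 minus control (x axis), grouped as ligands, receptors and TRAF adaptors; points are the fitted changes, whiskers 1 SE, and filled points passed an adjusted p of 0.05. Tnfrsf8 at 2.89 is farthest to the right and Tnfsf8 at -1.77 farthest to the left, and several genes with large changes and wide whiskers, such as Tnfrsf4 at -1.58, did not pass.

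Among the receptors, 3 of 15 tested genes rose, 0 fell and 12 did not pass, with a median log2 change of -0.23. The share that passed was 20%, near the 15.2% of all tested genes. In limma 8 of the 15 had an unadjusted p below 0.05, beside 35.0% of all tested genes. Voom on the recovered reads called Tnfrsf1a and Tnfrsf8. Both TNF receptor genes were among those that rose. Tnfrsf1a encodes TNFR1, the widely expressed death domain receptor, and was at 18.9, 18.8 and 18.8 FPKM in the controls and at 21.8, 24.7 and 26.4 FPKM in SLE1.2.3 mice 1, 2 and 3. Its controls were nearly identical and all SLE1.2.3 values lay above them, a small difference of 1.29-fold between means of 18.9 ± 0.0647 and 24.3 ± 2.31 FPKM (log2 change 0.34 ± 0.08, adjusted p = 0.037). Tnfrsf1b encodes TNFR2, which lacks a death domain and binds TRAF2. It was at 21.8, 19.7 and 18.4 FPKM in the controls and at 27.6, 47.5 and 64.1 FPKM in SLE1.2.3 mice 1, 2 and 3. The ranges did not overlap and the means were 20.0 ± 1.71 and 46.4 ± 18.3 FPKM, 2.32-fold apart (log2 change 1.10 ± 0.29, adjusted p = 0.0498). This call sat at the threshold: the adjusted p was 0.050 with voom on the recovered reads and 0.053 without the mean-variance trend. The ratio of Tnfrsf1b to Tnfrsf1a was 1.15, 1.04 and 0.980 in the controls and 1.27, 1.92 and 2.43 in SLE1.2.3 mice 1, 2 and 3, and the groups did not overlap. Tnfrsf1a did not pass with a common FPKM sum (adjusted p = 0.11). Tnfrsf1a also missed the threshold without control mouse 1, 2 or 3 (adjusted p = 0.12, 0.12 and 0.11) or SLE1.2.3 mouse 2 or 3 (0.15 and 0.065). Tnfrsf1b did so without the same libraries (adjusted p = 0.13, 0.15, 0.15, 0.17 and 0.066). Tnfrsf1b, at 145213463 to 145246870 on chromosome 4, lies 20.3 kb from Tnfrsf8, and both genes rose.

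The OX40 and GITR genes were far lower in SLE1.2.3 mice 2 and 3 than in mouse 1 or the controls, and neither passed. Tnfrsf4 encodes OX40 and Tnfrsf18 encodes GITR, costimulatory receptors of activated and regulatory T cells, and the genes lie 9.6 kb apart on chromosome 4. Tnfrsf4 was at 258, 245 and 216 FPKM in the controls and at 206, 75.2 and 31.8 FPKM in SLE1.2.3 mice 1, 2 and 3. SLE1.2.3 mouse 1 lay just under the lowest control, while SLE1.2.3 mouse 3 was far below it. The change of -1.58 ± 0.62 did not pass (adjusted p = 0.12), with means of 239.9 ± 21.4 and 104 ± 90.4 FPKM. Tnfrsf18 was at 109.9, 117 and 96.6 FPKM in the controls and at 83.3, 39.0 and 18.6 FPKM in SLE1.2.3 mice 1, 2 and 3, and did not pass either (log2 change -1.43 ± 0.49, adjusted p = 0.094). Tnfrsf18 passed with a common FPKM sum (adjusted p = 0.044), with array weights (0.00039) and without SLE1.2.3 mouse 1 (0.0040). In those fits 11.8%, 61.1% and 32.6% of all tested genes passed, in the same order. Tnfrsf4 also passed with array weights and without SLE1.2.3 mouse 1. In both genes the SLE1.2.3 values ran in the same order of mice as Cd4. Other family genes, among them Tnfsf8, Traf6 and Tnfrsf13b, also fell from SLE1.2.3 mouse 1 to mouse 3. The first principal component ranked these mice in that order as well. Their ratio kept a narrow range, 2.35, 2.09 and 2.24 in the controls and 2.47, 1.93 and 1.71 in SLE1.2.3 cells, and here the groups overlapped. The antisense transcript Gm16008 covers 27.2% of the exonic bases of Tnfrsf18 but was at most 2.54 FPKM.

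Other receptor genes differed less. Tnfrsf25 encodes DR3, a death domain receptor that costimulates T cells, and was at 37.6, 37.5 and 37.6 FPKM in the controls and at 56.3, 54.9 and 42.7 FPKM in SLE1.2.3 mice 1, 2 and 3. The ranges were apart, and the change of 0.43 ± 0.11 missed the threshold narrowly (adjusted p = 0.051). In Tnfrsf25 it was mouse 3, and not mouse 1, that lay nearest the controls, and the gene passed with the filter at 5 FPKM (adjusted p = 0.049). Tnfrsf13b, which encodes TACI, a receptor for BAFF and APRIL best known in B cells, was at 27.6, 27.1 and 25.9 FPKM in the controls and at 22.3, 13.0 and 9.97 FPKM in SLE1.2.3 mice 1, 2 and 3. All SLE1.2.3 values of Tnfrsf13b lay below the controls, the opposite side from the B cell marker sum, and the change of -0.86 ± 0.26 did not pass (adjusted p = 0.070). Tnfrsf26, a receptor gene of a chromosome 7 cluster, had ranges apart at 13.4 ± 1.03 and 8.53 ± 2.88 FPKM (adjusted p = 0.086). Its neighbours Tnfrsf22 and Tnfrsf23 encode decoy receptors for TRAIL in the mouse. They had 3.05 ± 0.600 and 2.85 ± 0.732 FPKM, and 2.44 ± 0.591 and 1.21 ± 0.939 FPKM (adjusted p = 0.76 and 0.15), and their transcripts share 91.9% identity over 1451 bases, so reads may be split between them. Fas, the death receptor of activation-induced death, had 21.2 ± 1.46 and 17.3 ± 2.77 FPKM with ranges apart (adjusted p = 0.16), and Tnfrsf10b, the TRAIL death receptor gene, had 3.65 ± 0.129 and 3.04 ± 0.400 FPKM, also apart (adjusted p = 0.17). Tnfrsf9, which encodes CD137, was at 81.5, 74.1 and 66.8 FPKM in the controls and at 86.3, 41.3 and 35.3 FPKM in SLE1.2.3 mice 1, 2 and 3, with mouse 1 above every control (adjusted p = 0.27). Tnfrsf14, which encodes HVEM, the receptor of LIGHT, had 12.7 ± 3.56 and 18.2 ± 4.26 FPKM (adjusted p = 0.20), and Cd27, the costimulatory receptor of naive and memory T cells, had 18.2 ± 3.72 and 15.1 ± 0.585 FPKM (adjusted p = 0.30).

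**Figure D3:**
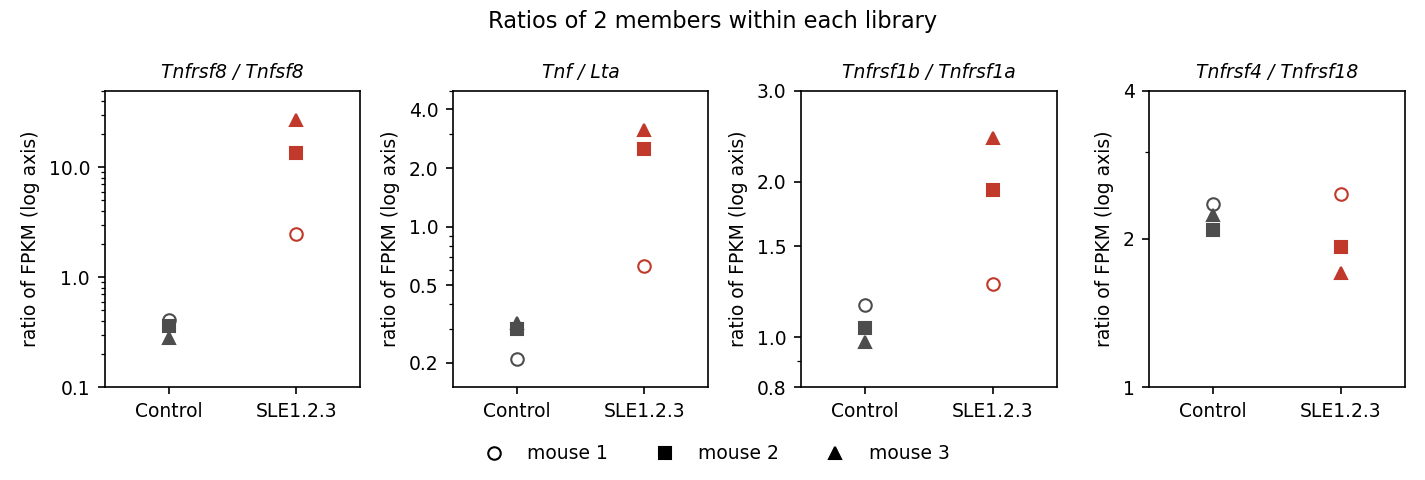
Ratio of FPKM values of 2 genes within each library (y axis, log scale) for 4 gene pairs, in control and SLE1.2.3 cells; each point is 1 mouse. Tnfrsf8 over Tnfsf8 runs from 0.278 to 0.412 in the controls and from 2.50 to 27.1 in SLE1.2.3 cells, while Tnfrsf4 over Tnfrsf18 overlaps between the groups.

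All 4 adaptor genes were tested, and 2 rose, 1 fell and 1 did not pass, where 15.2% of all tested genes passed. TRAF1 and TRAF2 form complexes that recruit the cellular inhibitors of apoptosis to receptors such as TNFR2 and CD30. Traf1, at 34941750 to 34961772 on chromosome 2, was at 20.2, 19.6 and 19.5 FPKM in the controls and at 34.6, 38.6 and 37.1 FPKM in SLE1.2.3 mice 1, 2 and 3. Both groups were tight and far apart, with SLE1.2.3 mouse 1 close to the other SLE1.2.3 mice. Traf1 rose 1.86-fold, from 19.8 ± 0.389 to 36.8 ± 1.98 FPKM (log2 change 0.86 ± 0.06, adjusted p = 0.0023). It was the one gene of the 40 that passed under all 19 alternatives, with log2 changes from 0.78 to 0.98 and adjusted p from 9.9e-06 to 0.024. Traf2 was at 9.18, 9.10 and 8.37 FPKM in the controls and at 13.1, 14.5 and 16.2 FPKM in SLE1.2.3 mice 1, 2 and 3. Again the groups were well apart, and Traf2 rose 1.65-fold, from 8.88 ± 0.444 to 14.6 ± 1.57 FPKM (log2 change 0.66 ± 0.09, adjusted p = 0.010). The Traf2 call ended without control mouse 2 (adjusted p = 0.056), control mouse 3 (0.055) or SLE1.2.3 mouse 2 (0.062).

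Traf6 encodes the adaptor that also serves the interleukin-1 and Toll-like receptors, and it fell. It was at 19.1, 18.0 and 17.3 FPKM in the controls and at 12.8, 9.27 and 8.16 FPKM in SLE1.2.3 mice 1, 2 and 3. The SLE1.2.3 values were all below the controls, with means of 18.1 ± 0.926 and 10.1 ± 2.41 FPKM, 1.80-fold apart (log2 change -0.81 ± 0.15, adjusted p = 0.022). The Traf6 call ended without control mouse 1, 2 or 3 (adjusted p = 0.089, 0.090 and 0.081) or SLE1.2.3 mouse 2 (0.10). Traf3, whose product restrains the noncanonical NF-κB pathway, was at 14.6, 12.8 and 13.4 FPKM in the controls and at 13.0, 16.0 and 18.8 FPKM in SLE1.2.3 mice 1, 2 and 3. SLE1.2.3 mouse 1 lay within the control range, and Traf3 did not pass (log2 change 0.20 ± 0.13, adjusted p = 0.32). Traf1, Traf2 and Traf6 share chromosome 2 but lie megabases apart, and none of the 8 genes that passed overlaps another annotated gene's exons or has a near-identical transcript.

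The SLE1.2.3 mice did not contribute equally. SLE1.2.3 mouse 1 was the nearest of the 3 to the control mean in 22 of the 29 tested genes (75.9%), against 52.8% of all tested genes. Mouse 1 was also the nearest in 8 of the 8 that passed, but the share among all genes that passed was not computed. Without SLE1.2.3 mouse 1, 20 of the 29 genes passed, 9 higher and 11 lower, where 32.6% of all tested genes passed. The 12 genes added were Tnf, Tnfsf4, Tnfsf10, Cd40lg, Tnfrsf4, Tnfrsf9, Tnfrsf13b, Tnfrsf14, Tnfrsf18, Tnfrsf23, Tnfrsf26 and Traf3. With mouse 1 as the single SLE1.2.3 library, the log2 changes of Tnfsf11, Tnfrsf8, Tnfrsf25, Traf1 and Traf2 were 1.54, 1.86, 0.57, 0.78 and 0.51. That of Tnfsf8 was -0.91. Lta, Tnfrsf1a, Tnfrsf1b and Traf6 did not pass there (adjusted p = 0.19, 0.22, 0.087 and 0.051). The control spread stands in for that of the single SLE1.2.3 library in this fit. Mouse 1 also had the lowest γδ marker sum of the 3 and a Cd4 level within the control range. Without SLE1.2.3 mouse 2, or without control mouse 2 or 3, Traf1 was the only gene of the family that passed, and without control mouse 1 Traf1 and Traf2 passed. The shares of all tested genes that passed in these fits were 1.81%, 2.26%, 2.39% and 2.75%, in the same order.

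**Figure D4:**
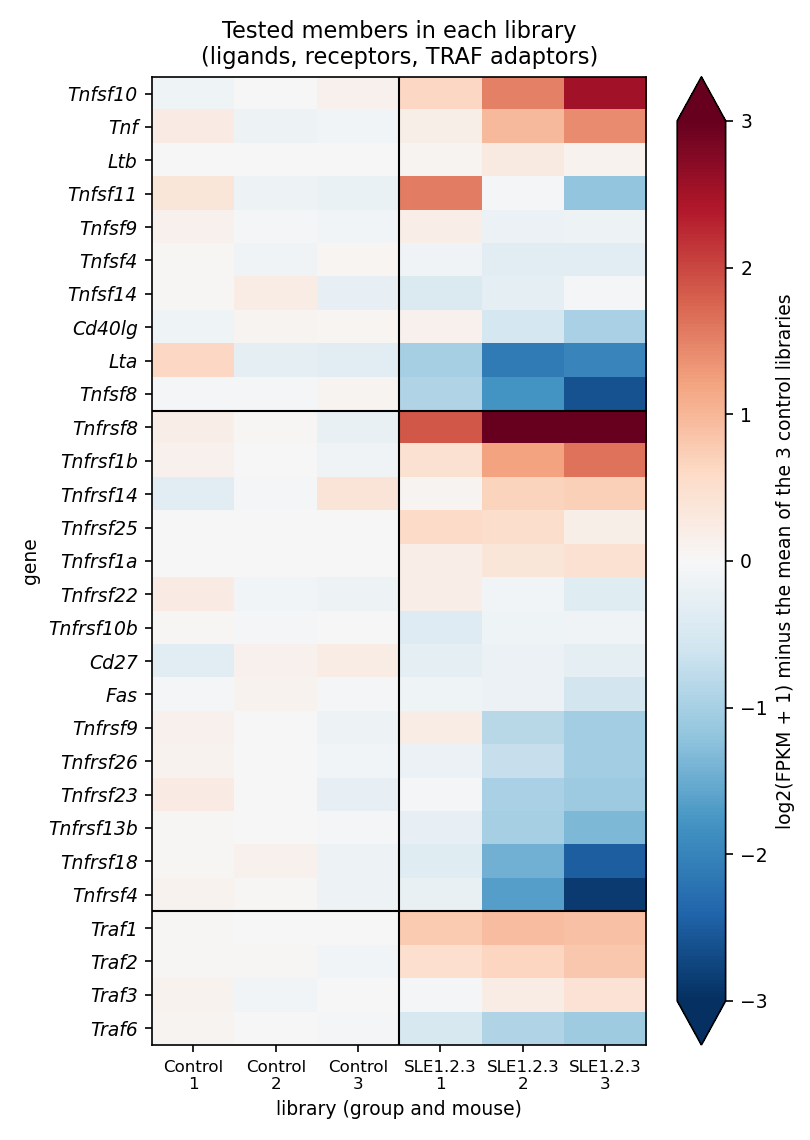
Heat map of log2(FPKM + 1) minus the control mean (colour, log2 units) for the 29 tested genes (rows) in the 6 libraries (columns). Values beyond 3 or -3 share the end colours. The control columns are mostly pale, and SLE1.2.3 mouse 1 is paler than SLE1.2.3 mice 2 and 3 for most genes, with Tnfsf11 as a gene whose mouse 1 value stands out upwards.

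The 11 genes below a mean of 1 FPKM were also looked at in a fit with no filter, which tested 30034 features and called 2.66% of them. Of the 8 genes above, Tnfrsf8, Traf1 and Traf2 passed in it, and Lta, Tnfsf8, Tnfrsf1a, Tnfrsf1b and Traf6 did not (adjusted p from 0.062 to 0.12). Tnfsf13b encodes the B cell survival factor BAFF. It was at 0.087, 0.082 and 0.064 FPKM in the controls and at 0.405, 0.498 and 0.392 FPKM in SLE1.2.3 mice 1, 2 and 3, from 13 to 32 reads and from 202 to 232 reads. The groups were far apart and even within themselves, and in that fit Tnfsf13b rose by 0.41 ± 0.04 on the log2(FPKM + 1) scale (adjusted p = 0.021). Fasl, which encodes the ligand of Fas and is used by cytotoxic lymphocytes, was at 0.154, 0.164 and 0.295 FPKM in the controls and at 1.16, 1.47 and 2.52 FPKM in SLE1.2.3 mice 1, 2 and 3. These values rest on 15, 18 and 17 reads and on 187, 176 and 366 reads, with no overlap, and the adjusted p was 0.053 with no filter and 0.013 with no filter and voom on the recovered reads, an alternative added after seeing the data. The sums of the CD8 T and NK cell markers and of the γδ T cell markers were both lowest in SLE1.2.3 mouse 1 and highest in mouse 3. Fasl had the same order, and so did other family genes, among them Tnf, Tnfrsf8 and Tnfrsf1b. The first principal component also placed the SLE1.2.3 mice in this order. Tnfrsf21, which encodes DR6, reached 0.114, 0.793 and 0.949 FPKM in SLE1.2.3 mice 1, 2 and 3 and 0.074 FPKM or less in control libraries (adjusted p = 0.22 with no filter). Tnfsf15, the gene of the DR3 ligand TL1A, was at 0.202, 0.132 and 0.141 FPKM in the controls and 0.064, 0.034 and 0.012 FPKM in SLE1.2.3 mice, with 3 to 18 reads in the latter (adjusted p = 0.064 with no filter). Ltbr, the lymphotoxin-β receptor gene, was between 0.498 and 1.16 FPKM in all libraries, and Cd40, the receptor of the CD40 ligand, between 0.258 and 0.799 FPKM. Tnfrsf13c, which encodes the BAFF receptor, reached at most 0.802 FPKM, and Cd70, which encodes the ligand of CD27, at most 0.543 FPKM. Tnfrsf11a, which encodes RANK, was between 0.003 and 0.042 FPKM. Tnfsf12 and Tnfsf13, the genes of TWEAK and APRIL, were at most 0.222 and 0.021 FPKM and share exons with the readthrough gene Tnfsfm13. Thus the ligand genes Ltb, Cd40lg and Tnfsf11 were abundant while the genes of their receptors, Ltbr, Cd40 and Tnfrsf11a, were at most 1.16, 0.799 and 0.042 FPKM in the same cultures.

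Counts of pathway genes around the family were taken from lists that do not hold the 40 genes. Over all tested genes, 15.2% passed, 9.65% higher and 5.58% lower, with a median log2 change of 0.01. Of 13 further TNF superfamily genes, 6 were tested, 1 rose and 1 fell, with a median log2 change of -0.26. Traf5, another adaptor of costimulatory receptors, rose from 1.67 ± 0.225 to 2.55 ± 0.185 FPKM (log2 change 0.41 ± 0.10, adjusted p = 0.037), and Relt, a receptor gene of lymphoid tissue, fell from 4.90 ± 0.223 to 3.08 ± 0.349 FPKM (log2 change -0.53 ± 0.09, adjusted p = 0.016). Of 14 death receptor signalling genes 3 rose, 1 fell and 10 did not pass, with a median of 0.09. Birc2, which encodes the ubiquitin ligase cIAP1 that TRAF2 carries to receptors, rose from 15.9 ± 2.34 to 29.4 ± 5.27 FPKM (adjusted p = 0.023). Tradd, the death domain adaptor gene of TNFR1, rose from 14.7 ± 0.609 to 19.3 ± 1.52 FPKM (adjusted p = 0.027), and Ripk3, the necroptosis kinase gene, from 29.7 ± 1.19 to 37.7 ± 3.15 FPKM (adjusted p = 0.039).

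Of 26 genes of NF-κB signalling, 7 rose, 1 fell and 18 did not pass, with a median log2 change of 0.15. The share that passed was 30.8%, beside 15.2% of all tested genes. Nfkbia, which encodes the NF-κB inhibitor IκBα, rose from 237 ± 4.84 to 356 ± 27.2 FPKM (log2 change 0.58 ± 0.08, adjusted p = 0.012) and Nfkbie, which encodes IκBε, from 18.6 ± 0.524 to 30.1 ± 2.88 FPKM (log2 change 0.67 ± 0.08, adjusted p = 0.0085). Bcl3, a nuclear IκB family gene, rose from 45.5 ± 1.01 to 89.6 ± 16.0 FPKM (adjusted p = 0.012), and Map3k14, which encodes NIK, the kinase of the noncanonical pathway that TRAF2 and TRAF3 hold down, from 7.24 ± 0.210 to 14.4 ± 2.87 FPKM (adjusted p = 0.016). Of 12 listed NF-κB target genes 11 were tested, and 5 rose and 1 fell, with a median of 0.97. The share that passed was 54.5%, beside 15.2% of all tested genes. Gadd45b rose from 18.7 ± 0.670 to 38.0 ± 5.87 FPKM (adjusted p = 0.0083), and the adhesion molecule gene Icam1 from 12.4 ± 1.69 to 28.8 ± 7.99 FPKM (adjusted p = 0.024). The survival genes Bcl2a1b and Bcl2a1d rose by 2.13 ± 0.38 and 2.32 ± 0.44 on the log2 scale (adjusted p = 0.020 and 0.023). As near-identical copies they may share reads, so the 5 that rose may not all be separate signals. Across the 4 lists, with 57 tested genes, 16 rose and 4 fell, where 9.65% of all tested genes rose and 5.58% fell. Without SLE1.2.3 mouse 2 the counts were 1 and 0, where 1.81% of all tested genes passed. Without control mouse 1, 2 or 3 they were 2 and 0, 2 and 0, and 2 and 1, where 2.75%, 2.26% and 2.39% of all tested genes passed. Without SLE1.2.3 mouse 3 they were 10 and 2 (11.1% of all tested genes), without SLE1.2.3 mouse 1 they were 21 and 7 (32.6%), and with no filter 5 and 2 (2.66%). These counts thus went up and down with those over the whole table. With a common FPKM sum, 12 rose and 0 fell across the lists, where 11.8% of all tested genes passed. That scaling moves the median log2 change of all tested genes to 0.11.

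**Figure D5:**
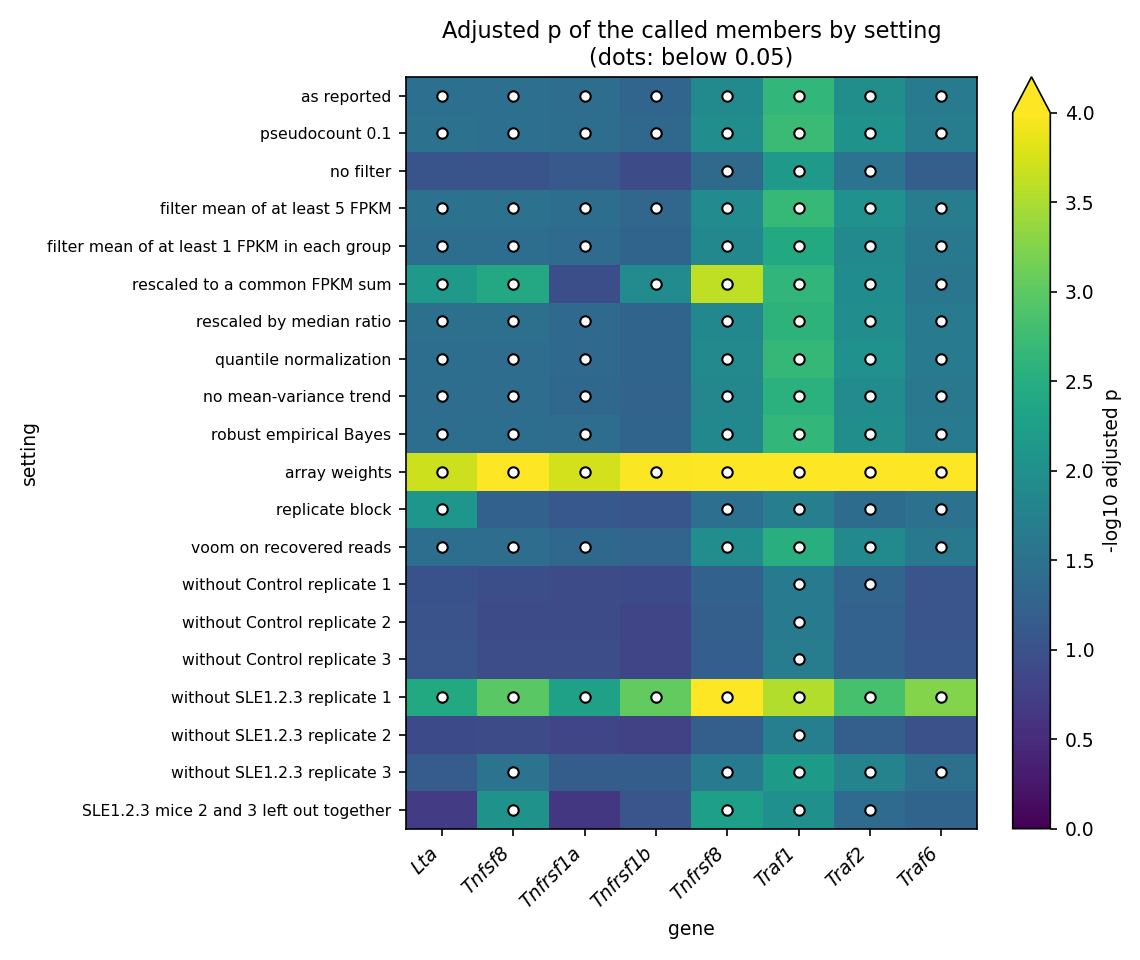
Adjusted p of the 8 genes that passed (columns) as reported and under each alternative (rows), coloured as -log10 of the adjusted p; a dot marks an adjusted p below 0.05. Traf1 has a dot in every row, and most other genes lose it where 1 control library or SLE1.2.3 mouse 2 is left out.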

How the data were processed

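Per the labels' protocols, SMARTER libraries were made from the polyadenylated RNA of 3 control and 3 SLE1.2.3 cultures. Tools listed without a role in the submitters' processing notes are STAR 2.7.3a, featureCounts 2.0.0, cutadapt 2.10, DESeq2 1.24.0 and FastQC 0.11.9, and the build is mm10. Neither strand setting nor annotation release is given in the sources used here. The authors deposited FPKM values for 33300 features with coordinates. Assigned reads per library, 29.7 to 83.5 in units of 1000000, were recovered from the steps of low FPKM values (under 30 reads), of which 100.0% were whole within 0.15 of a read. A gene listed at 0 could have an expected count of up to 3 reads, a limit that covers counting error only.

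Genes averaging at least 1 FPKM were fitted as log2(FPKM + 1), which understates changes of low genes, with limma 3.58.1 (R 4.3.3, empirical Bayes with trend, genotype only). P-values were adjusted by Benjamini-Hochberg over 11378 genes with a threshold of 0.05; they measure the spread between these mice. The 40 genes, the 4 pathway lists and the markers were chosen with earlier results of these data known. All 40 genes are accounted for, and of each list up to 4 passing genes with the smallest adjusted p are named, except 1 that is not reported here; Cd3e, Cd4, Trdv4, Ms4a1 and Foxp3 are named as defining markers, and Il2ra, Ctla4, Lrrc32 and Ikzf4 after their values were seen. GENCODE M21 held 32630 of the IDs with the same version and coordinates, among them all 40 genes. Similar transcripts were sought with blastn 2.17.0 (at least 90% identity over 200 bases). Scripts were tested on simulated data. Alternatives were another pseudocount, other filters, scalings and variance settings, voom on recovered reads, the mouse number as a block and libraries left out.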

Additional observations from a re-analysis of the deposited data

How the results depend on the processing

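None of the 8 genes that passed changed direction under the 19 alternatives, and Traf1 passed under each. As reported, 1733 genes were called over the whole table (15.2% of those tested), and 5 higher and 3 lower of the TNF family. No filter gave 798 genes (2.66%), with 4 family genes higher and 0 lower, and a filter of 5 FPKM gave 1129 genes (15.6%). Array weights gave 6952 genes, 61.1% of all tested genes, with 11 family genes higher and 15 lower. With mouse 1 as the single SLE1.2.3 library, 659 genes passed and 1 family gene was lower. Leaving out 1 library at a time gave 206 to 3705 genes (1.81% to 32.6%), 1 to 9 family genes higher and 0 to 11 lower. The cause was not tested. Scaling to the same FPKM sum gave 6 family genes higher and 4 lower, where 11.8% of all tested genes passed. Of all calls in that fit 73.8% were higher, against 63.4% as reported and 51.1% with quantile normalization. The list counts in the report under other settings were added after seeing the data.

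The mouse numbers were treated as names only, since same-numbered mice had correlated deviations of -0.0040, 0.10 and 0.091, not all over 0.1, and other pairs had -0.19 to 0.13. With the replicate number as a block, 940 genes passed (8.26% of those tested), and 3 family genes were higher and 2 lower. In that fit 9 genes of the 4 pathway lists were higher and 4 lower. Tnfsf8, Tnfrsf1a and Tnfrsf1b did not pass with that block (adjusted p = 0.058, 0.078 and 0.086).

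Of 544 pairs of a gene and an alternative, 13 changed sign, all in genes that did not pass as reported. The log2 change of Tnfsf9, -0.04 as reported, was 0.065 after scaling to the same FPKM sum and between -0.17 and 0.022 with 1 library left out. That of Tnfsf11, 0.10 as reported, was -0.064 with array weights and between -0.62 and 0.74 with 1 library left out. That of Tnfrsf22, -0.08 as reported, was between -0.22 and 0.056 with 1 library left out. With mouse 1 as the single SLE1.2.3 library the log2 changes of Tnfsf9, Tnfrsf22, Cd40lg, Tnfrsf9 and Traf3 were 0.20, 0.19, 0.12, 0.22 and -0.062. Depth limits the genes under 1 FPKM, and 3 mice per group limit all calls.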
